A study of Homo sapiens with 4 samples.

Results

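The 10 classical target genes of the transcriptional co-activator YAP followed one by one here in HCC1954 cells were CYR61, CTGF, ANKRD1, AMOTL1, AMOTL2, AXL, F3, CRIM1, NT5E and AJUBA. They were chosen by symbol from the count table, with earlier results of these data known. Each of the 10 symbols stood in 1 of 58735 rows. HCC1954, a long-established line of breast carcinoma cells, carries an amplified ERBB2 gene. The 4 RNA samples comprised 2 of cells with a scrambled control hairpin (shCON) and 2 of cells with a hairpin against the palmitoyltransferase gene ZDHHC15 (shZDHHC15), both delivered from GIPZ lentiviral vectors. The series' design text speaks of a stable knockdown, whereas the treatment notes give a transient plasmid transfection with harvest after 36 h, so the kind of knockdown is not settled. Each group's samples are numbered 1 and 2, and the labels do not say whether they were separate cultures, clones or hairpins. The p-values therefore measure only the spread between these samples, which may be technical. With 2 samples per group, that spread was estimated in part from all tested genes together.

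YAP shuttles between cytoplasm and nucleus under the control of the Hippo kinases. In the nucleus it binds TEAD transcription factors and switches on genes for matricellular proteins, surface receptors and cytoskeletal adaptors, and several of these genes, the angiomotins and AJUBA among them, encode proteins that act back on the Hippo pathway. CYR61 and CTGF are the target genes most used as a readout of YAP activity in breast and other epithelial cancer cells. The count table addresses whether each of these genes followed when ZDHHC15 was depleted.

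The windows before the start sites are shown first for the members whose letters matched a searched motif, because the members were chosen as targets of one transcription factor complex. RefSeq windows (build GRCh38.p14) running from 250 bases before to 50 bases after the start were matched by gene ID for 8 of the 10 genes, all except CYR61 and CRIM1. Both strands were searched for the TEAD letters GGAATG, the AP-1 letters TGANTCA and the CArG box of serum response factor. The 250 bases before the start are printed 5′ to 3′, with TEAD and AP-1 letters in capitals.
CTGF, chr6:131951373-131951622, minus strand: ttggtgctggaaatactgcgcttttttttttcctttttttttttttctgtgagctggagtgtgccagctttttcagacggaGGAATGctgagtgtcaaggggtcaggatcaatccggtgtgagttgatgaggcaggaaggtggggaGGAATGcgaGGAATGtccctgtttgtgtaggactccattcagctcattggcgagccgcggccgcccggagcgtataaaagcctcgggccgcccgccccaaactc
ANKRD1, chr10:90921088-90921337, minus strand: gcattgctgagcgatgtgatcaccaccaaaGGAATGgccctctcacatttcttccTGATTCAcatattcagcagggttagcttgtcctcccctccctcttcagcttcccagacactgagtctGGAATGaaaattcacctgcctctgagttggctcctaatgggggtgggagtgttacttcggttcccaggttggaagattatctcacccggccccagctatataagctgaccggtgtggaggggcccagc
F3, chr1:94541760-94542009, minus strand: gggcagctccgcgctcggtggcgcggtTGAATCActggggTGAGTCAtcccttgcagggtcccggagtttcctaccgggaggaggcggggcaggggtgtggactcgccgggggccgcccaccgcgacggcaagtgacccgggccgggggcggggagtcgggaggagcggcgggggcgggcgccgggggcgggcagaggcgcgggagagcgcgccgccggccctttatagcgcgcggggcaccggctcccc
TEAD letters stood in 2 of the 8 windows, those of CTGF and ANKRD1, and in 14.0% of the 35116 windows of the RefSeq table. The first bases of the CTGF matches lay at -169, -104 and -95 from the start, and those of ANKRD1 at -220 and -128. AP-1 letters occurred in the windows of ANKRD1 (first base at -195) and F3 (-223 and -210), against 7.71% of all windows, and a CArG box in 0 of the 8, against 1.29%. No TEAD and AP-1 matches overlapped in these windows. The RefSeq starts of ANKRD1 and NT5E lie 189 and 499 bases from the gene starts of the count table's annotation. The AMOTL1 window belongs to a start 61925 bases inside that gene. A match is a stretch of letters only, and the windows do not cover enhancers.

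Total counts per sample ranged from 17560982 to 19118704. The hairpin's own target, ZDHHC15, had 17617 and 15716 counts under shCON and 0 in either shZDHHC15 library, which at the 3 counts that a count of 0 allows per library is at least 6045-fold lower. Between samples of a group the counts differed by more than sampling noise, with a chi-square per degree of freedom of 8.32 in shCON and 6.79 in shZDHHC15, so each was kept as a sample. The markers fixed for the line were present in every sample, with a mean of 5760 CPM (counts scaled to the library total with edgeR's TMM factors) for ERBB2 in shCON. Of these 9 epithelial and HER2-amplicon markers, 8 were lower in shZDHHC15 cells and 0 higher, and their summed level went from between 27621 and 30336 CPM to between 15019 and 16078 CPM. Of the fibroblast markers 7 of 8, and of the leukocyte markers 7 of 8, stayed under 1 CPM in every sample, CD3E, MS4A1 and LUM being at 0 counts. The remaining marker of each list was higher in shZDHHC15 cells, COL1A1 going from a mean of 6.30 to 9.85 CPM and CD14 from 0.395 to 1.23 CPM. The 5 endothelial markers summed to 57.5 CPM in each shCON sample and to 108 and 101 CPM in shZDHHC15, with CDH5 and PECAM1 called higher and KDR lower. ESR1, low in this line, went from a mean of 7.47 to 16.04 CPM (adjusted p = 2.13e-04). Whether these shifts have a part in the results was not tested, and in bulk RNA fewer cells of a kind and less RNA per cell cannot be told apart.

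The members fell to very different degrees. Transcripts of the secreted proteins CYR61 and CTGF, the nuclear cofactor ANKRD1 and the receptor AXL dropped to between 14.5% and 27.0% of their shCON level, whereas those of AMOTL2, AJUBA, CRIM1, AMOTL1 and F3 kept between 50.8% and 68.6%, and NT5E did not pass the test. Of 15817 genes tested with edgeR's quasi-likelihood test, 20.3% were called lower and 21.7% higher at an adjusted p under 0.05, after Benjamini-Hochberg adjustment over all of them. Against this background 9 members were called lower and 0 higher. The list was chosen with earlier results of these data known, so these counts are no independent test of it. ANKRD1 passed the filter on low counts only through the shCON samples and so had to differ. Of the 9 others, which were abundant enough in both groups, 8 were lower. A fall beyond 1 on the log2 scale was called for 3 of these 9, CYR61, CTGF and AXL, against 3.79% of the tested genes. Both shZDHHC15 samples lay below both shCON samples for 8 of the 9 and for 35.3% of all tested genes, and above both for 0 of the 9 and for 37.2%. Since 42% of the tested genes were called in either direction, a call by itself sets a gene little apart here, and the sizes are given for each.

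**Figure D1:**
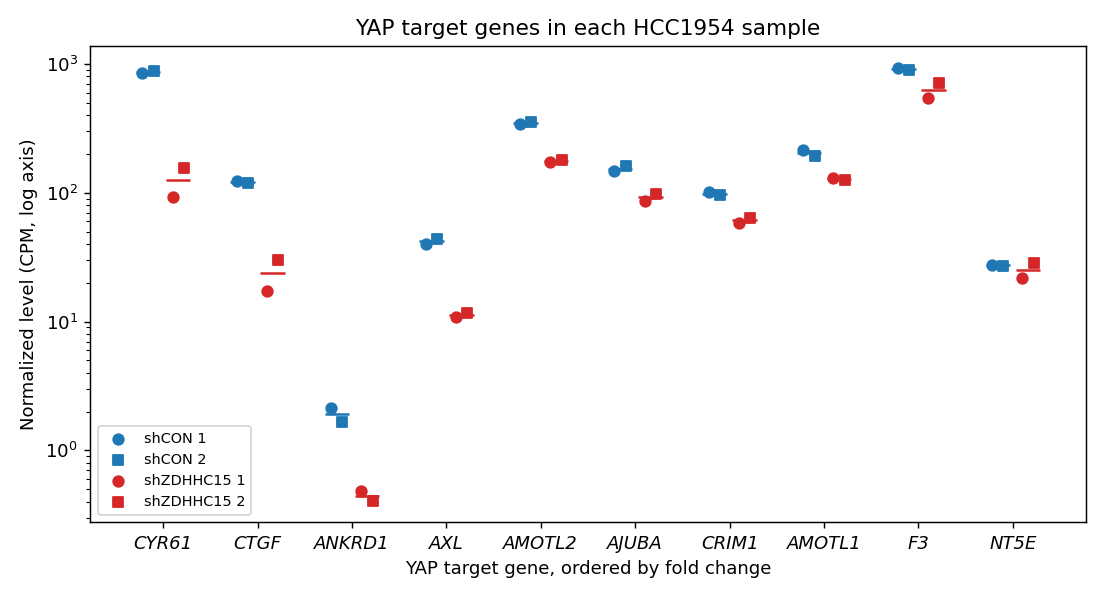
Level of each YAP target gene in CPM (log axis) in the 2 shCON samples (blue) and the 2 shZDHHC15 samples (red), with circles for replicate 1, squares for replicate 2 and a line at each group mean. Genes are ordered by fold change. The red symbols lie below the blue ones for every gene except NT5E, whose groups overlap.

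CYR61 and CTGF encode members of the CCN family, secreted matricellular proteins that bind integrins and heparan sulphate. CYR61 (chromosome 1, 85580761 to 85583962, plus strand, GRCh38) measured 852 and 876 CPM in the shCON samples and 93.5 and 157 CPM in the shZDHHC15 samples. The shCON values lay close together and the lowest of them was 5.43 times the highest shZDHHC15 value. The fitted log2 fold change was -2.79 (95% interval -3.14 to -2.43), the adjusted p 8.71e-09 by edgeR's quasi-likelihood test, and the gene ranked 49 by size of fall among the 15817 tested. CTGF (chromosome 6, 131948176 to 131951373, minus strand), whose start-site window carries 3 of the TEAD matches above, measured 124 and 120 CPM in shCON and 17.4 and 30.1 CPM in shZDHHC15. Here too the groups stood apart, by 3.99 times at their nearest samples, and the log2 fold change was -2.36 (95% interval -2.72 to -1.99, adjusted p = 7.13e-08). For both genes it was shZDHHC15 1 that held the lower level. An antisense gene, AL133346.1, shares 195 exonic bases with CTGF and received 0 counts in each sample. Of the other CCN family genes, NOV fell by 0.96 (adjusted p = 9.24e-04), WISP2 was low and not called (log2 fold change -0.50, adjusted p = 0.446), and WISP1 and WISP3 were too low to be tested.

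ANKRD1 encodes a stress-responsive ankyrin repeat protein of muscle that is widely read as a YAP target in epithelial cells. It was the least abundant member, with 39 and 28 counts under shCON but 9 and 8 under shZDHHC15 (chromosome 10, 90912096 to 90921276, minus strand). These correspond to 2.14 and 1.66 CPM against 0.483 and 0.408 CPM. The groups did not overlap. ANKRD1 passed the filter on low counts only through shCON and so had to differ, which makes its call and this gap no support. The log2 fold change of -2.08 had the widest interval of the 10 genes, from -3.01 to -1.16 (adjusted p = 0.00135 by edgeR's quasi-likelihood test). Its paralog ANKRD2, a gene of the same muscle ankyrin repeat family, was somewhat more abundant and fell by 2.22 (adjusted p = 2.26e-05), from 96 and 118 counts to 25 in each shZDHHC15 sample.

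AXL encodes a receptor tyrosine kinase of the TAM family that is activated by GAS6 and linked to invasion. It measured 39.9 and 43.9 CPM in shCON and 10.9 and 11.7 CPM in shZDHHC15 (chromosome 19, 41219203 to 41261766, plus strand). The samples of each group were close to each other and the groups were 3.41 times apart at their nearest values. The log2 fold change was -1.89 (95% interval -2.17 to -1.61, adjusted p = 4.22e-08). The other TAM receptor genes were not called, TYRO3 at a log2 fold change of 0.03 (adjusted p = 0.85) and MERTK at 0.23 (adjusted p = 0.486), and nor was the ligand gene GAS6 at 0.00330 (adjusted p = 0.985). Of the 7 genes of the TAM list, AXL was the one called. Whether its change differed from that of its relatives was not tested.

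AMOTL2, AMOTL1 and AJUBA encode junction and actin-associated adaptors. Angiomotin-like proteins hold YAP in the cytoplasm, and AJUBA, a LIM-domain protein, binds LATS kinases. AMOTL2 (chromosome 3, 134355874 to 134375479, minus strand) measured 341 and 354 CPM in shCON and 173 and 180 CPM in shZDHHC15. The log2 fold change was -0.98 (95% interval -1.17 to -0.79, adjusted p = 8.18e-07). Its exons contain the pseudogene RPL39P5, which received at most 8 counts in a sample. AMOTL1 (chromosome 11, 94706431 to 94876753, plus strand) went from 213 and 193 CPM to 129 and 126 CPM, a log2 fold change of -0.67 (95% interval -0.87 to -0.47, adjusted p = 5.33e-05). AJUBA (chromosome 14, 22971174 to 22982642, minus strand) measured 147 and 161 CPM in shCON and 86.3 and 97.6 CPM in shZDHHC15, a log2 fold change of -0.74 (95% interval -0.96 to -0.53, adjusted p = 4.09e-05). For all 3 genes the groups were apart in every sample. The intervals of their fold changes overlap. The third angiomotin gene, AMOT, went the other way, from 111 and 75 counts to 381 and 271, a log2 fold change of 1.69 (adjusted p = 2.50e-05). Among the zyxin and ajuba LIM genes other than AJUBA, 3 were higher and 3 lower, the close relatives of AJUBA being split between WTIP (-0.89, adjusted p = 6.64e-05) and LIMD1 (0.37, adjusted p = 0.0186).

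CRIM1 and F3 encode membrane proteins. CRIM1, which carries cysteine-rich repeats and binds BMPs, measured 101 and 96.6 CPM in shCON and 58.7 and 63.7 CPM in shZDHHC15 (chromosome 2, 36355926 to 36551135, plus strand). The log2 fold change was -0.69 (95% interval -0.90 to -0.47, adjusted p = 7.48e-05). F3, tissue factor, starts the extrinsic clotting cascade and signals through protease-activated receptors. It was the most abundant member in CPM, at 937 and 900 CPM in shCON and 543 and 718 CPM in shZDHHC15 (chromosome 1, 94529225 to 94541800, minus strand). The nearest samples of the groups were only 1.25 times apart, and the log2 fold change was the smallest among the called members, -0.54 (95% interval -0.78 to -0.30, adjusted p = 0.00130). It rested in part on shZDHHC15 1, without which the log2 fold change was -0.36 (adjusted p = 0.0461).

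NT5E encodes CD73, the ectonucleotidase that turns extracellular AMP into adenosine. It measured 27.6 and 27.1 CPM in shCON and 21.9 and 28.4 CPM in shZDHHC15 (chromosome 6, 85449584 to 85495791, plus strand). One shZDHHC15 sample lay below both controls and the other above both. The log2 fold change of -0.12 (95% interval -0.42 to 0.17, adjusted p = 0.509) leaves room for a fall of up to 1.34-fold, and its sign depended on the library, at -0.33 without shZDHHC15 2 and 0.05 without shZDHHC15 1. The upper 95% bounds on the log2 scale were below -1 for CYR61, CTGF and AXL, whereas the lower bound of NT5E was -0.42.

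**Figure D2:**
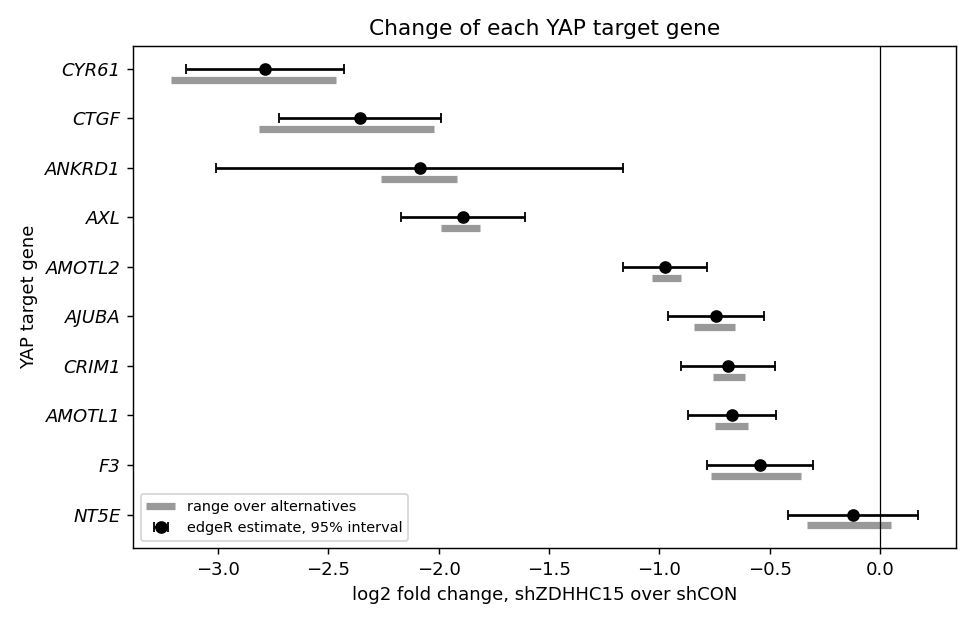
Log2 fold change of each YAP target gene, shZDHHC15 over shCON, with the edgeR estimate (points) and its 95% interval (bars), and below it the range over the alternative settings, single samples left out included (grey). CYR61, CTGF, AXL and ANKRD1, the last of which passed the filter only through shCON, have intervals wholly below -1, and the interval of NT5E spans 0.

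The spread between replicates was itself uneven. For CYR61 the shCON samples differed by 0.04 on the log2 scale and the shZDHHC15 samples by 0.75, and for CTGF by 0.04 and 0.79. These shZDHHC15 differences were larger than those of 93.9% and 94.7% of all tested genes, whereas in shCON the 2 genes stood at the 12.5 and 13.5 percentiles. F3 and NT5E followed with 0.40 and 0.38 between the shZDHHC15 samples, at the 83.1 and 81.3 percentiles. In all 4 genes shZDHHC15 2 was the higher sample, by 1.68 times for CYR61, 1.73 times for CTGF, 1.32 times for F3 and 1.30 times for NT5E. Counting error is small beside this, since its standard error on the log2 difference was 0.04 for CYR61 and 0.10 for CTGF. AMOTL1, AMOTL2 and AXL, in contrast, differed by 0.03 to 0.10 between the shZDHHC15 samples, beside counting errors of 0.04 to 0.14. Over the 10 genes, shZDHHC15 2 was the higher sample for 8, against 48.1% of all tested genes, and the exceptions were ANKRD1 and AMOTL1. The difference between samples was larger in shZDHHC15 than in shCON for 7 of the 10, by little for AMOTL2 (0.062 against 0.054). Over all tested genes the median difference was 0.14 in shZDHHC15 and 0.17 in shCON. The share of all tested genes with the larger difference in shZDHHC15 was not counted.

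**Figure D3:**
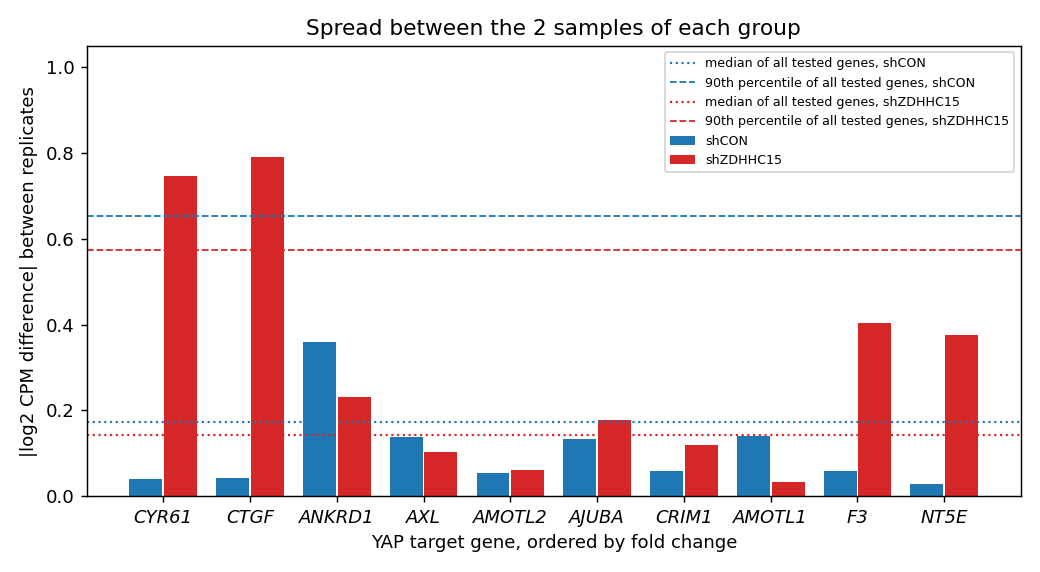
Absolute log2 CPM difference between the 2 samples of shCON (blue bars) and of shZDHHC15 (red bars) for each YAP target gene. Dotted and dashed lines mark the median and the 90th percentile of all 15817 tested genes in each group. CYR61 and CTGF exceed the 90th percentile in shZDHHC15 and lie under the median in shCON.

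Levels were compared between genes per length, in TPM computed with the deposited gene length. In shCON cells CYR61 (1189 ± 22.9 TPM, SD, n = 2) and F3 (1081 ± 72.9) led, followed by AMOTL2 (196 ± 2.41), CTGF (176 ± 10.5), AJUBA (86.9 ± 2.27), AMOTL1 (68.5 ± 7.34), CRIM1 (46.8 ± 3.16), AXL (27.5 ± 0.787), NT5E (20.4 ± 1.08) and ANKRD1 (3.26 ± 0.705), and no neighbours in this order overlapped between samples. In shZDHHC15 cells F3 (798 ± 156) led CYR61 (186 ± 66.3), CTGF (37.0 ± 14.0) moved behind AJUBA (56.0 ± 4.84) and AMOTL1 (46.3 ± 0.820), and AXL (7.99 ± 0.400) fell behind NT5E (20.2 ± 3.68). CTGF could not be ordered against AMOTL1 or CRIM1 there, since their samples overlapped. The summed level of the 10 genes went from 2979 and 2812 TPM to 1115 and 1467 TPM. CYR61 made up 40.5% and 41.7% of this sum in shCON and 12.5% and 15.9% in shZDHHC15, while the share of F3 went from 38.01% and 36.6% to 61.7% and 61.9%.

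**Figure D4:**
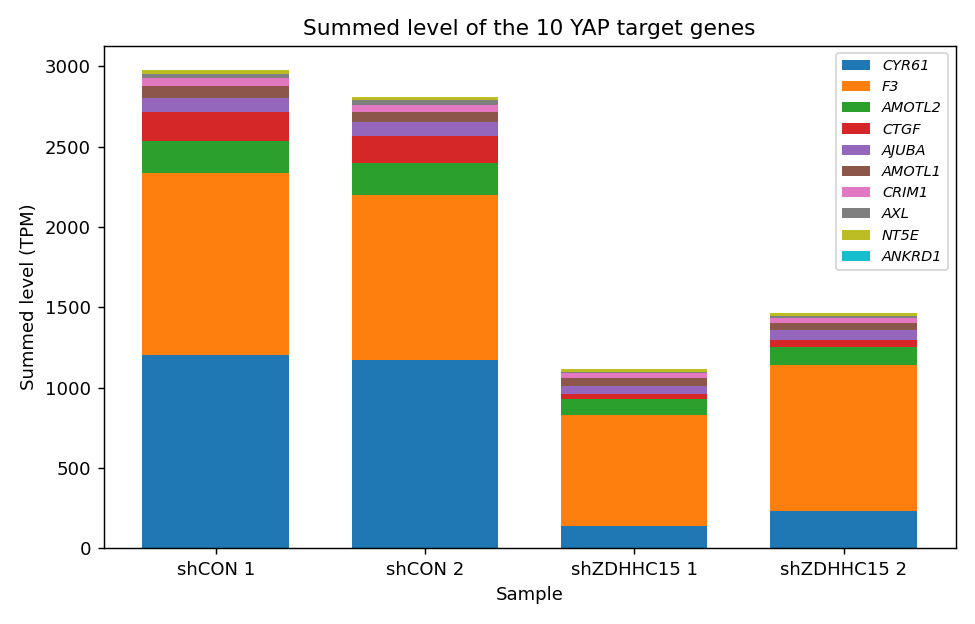
Summed level of the 10 YAP target genes in TPM in each sample, stacked by gene in the order of the shCON means. The sum lies between 2812 and 2979 TPM in shCON and between 1115 and 1467 TPM in shZDHHC15, with F3 (orange) as the largest share in the shZDHHC15 samples.

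Ratios of genes inside a library do not depend on how libraries are scaled. Per kilobase, CYR61 stood at 6.56 and 6.95 times CTGF in the shCON samples and at 5.12 and 4.97 times in the shZDHHC15 samples, a shift of -0.42 on the log2 scale. AMOTL2 stood at 2.68 and 3.07 times AMOTL1 in shCON and at 2.24 and 2.40 times in shZDHHC15. The largest shift was that of AMOTL2 to AMOT, from 79.5 and 113 to 12.0 and 18.6. In each of these 3 pairs the groups did not overlap, and the exact two-sided permutation test gave p = 0.3333, the smallest value that 2 samples against 2 allow. The 3 further pairs were added after the values were seen. F3 went from 0.940 and 0.878 times CYR61 to 4.96 and 3.91 times. The transcript of YAP itself, YAP1, stood at 426 and 416 CPM in shCON and 55.0 and 64.8 CPM in shZDHHC15, and CYR61 measured 5.13 and 5.40 times YAP1 per kilobase in shCON and 4.36 and 6.21 times in shZDHHC15, with overlapping groups (exact permutation p = 1). CTGF measured 0.782 and 0.778 times YAP1 in shCON and 0.852 and 1.25 times in shZDHHC15, without overlap.

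**Figure D5:**
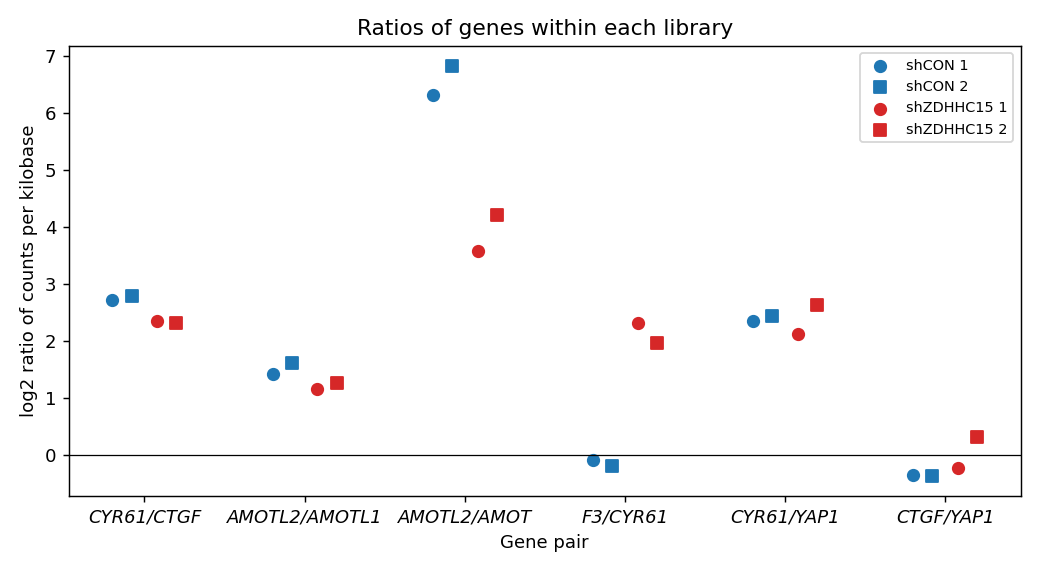
Log2 ratio of counts per kilobase for 6 gene pairs within each library, with shCON in blue, shZDHHC15 in red, circles for replicate 1 and squares for replicate 2. The groups are apart for every pair except CYR61 to YAP1, and AMOTL2 to AMOT shows the largest shift.

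Among 30 other genes named as YAP targets, 29 were tested, with 15 lower and 3 higher at an adjusted p under 0.05 and a median log2 fold change of -0.33, against 0.02 over all tested genes. Of all tested genes, 20.3% were called lower and 21.7% higher. This list too was chosen with earlier results of these data known. DOCK5 rose most (0.50, adjusted p = 0.00495). Of 22 Hippo kinases, scaffolds and cofactors, 21 were tested, with 6 higher and 6 lower and a median of 0.03. In this Hippo list, neither count was far from the shares of all tested genes. YAP1 fell most (-2.81, adjusted p = 4.28e-11) and AMOT rose most, and WWTR1, which encodes the YAP paralog TAZ, was not called (-0.08, adjusted p = 0.616). Antisense genes overlap the exons of YAP1 and WWTR1, with 0 counts and at most 31 counts in a sample.

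Counts of called partner genes are to be read beside the 21.7% higher and 20.3% lower of all tested genes. Of 10 tested CCN receptor genes, 2 were higher and 1 lower, shares no larger than that background, LRP6 rising by 0.94 (adjusted p = 1.93e-04) and ITGB5 falling by 0.28 (adjusted p = 0.0302). Of the 6 tested genes around tissue factor other than F3, 3 were lower and 2 higher. The protease-activated receptor genes F2R (-1.27, adjusted p = 3.47e-04) and F2RL1 (-0.98, adjusted p = 2.05e-06) and the inhibitor gene TFPI2 (-0.69, adjusted p = 2.91e-05) fell, and PROCR rose by 0.58 (adjusted p = 0.0334). F7, whose product is the tissue factor ligand, was at 0 counts in each sample. F2RL1, TFPI2, F7 and, in the next list, ENPP1 and the adenosine receptor genes are named after their values were seen. Of 14 tested genes of extracellular nucleotide and adenosine handling other than NT5E, 5 were higher and 4 lower. ENTPD3 (1.47, adjusted p = 0.00192) and ENTPD2 (0.70, adjusted p = 0.0366), which act before NT5E on ATP and ADP, rose, whereas ENTPD1 (0.59, adjusted p = 0.156) and ENPP1 (-0.79, adjusted p = 0.261), which also act before it, were not called. Of the adenosine receptor genes, ADORA1 (1.28, adjusted p = 4.33e-05) and the scarce ADORA2A (1.89, adjusted p = 0.00761) rose and ADORA2B fell (-0.34, adjusted p = 0.0190). The alkaline phosphatase gene ALPP, which can also release adenosine, fell most in that list (-1.40, adjusted p = 1.49e-07), and DPP4, from 2 and 1 counts to 25 and 30 counts, rose most, although at that depth its shCON level lies under the floor of 3 counts. Of 17 tested partners of the angiomotins, AMOT included, 7 were higher and 3 lower, with NEDD4L falling most (-0.85, adjusted p = 8.94e-06). Of the 6 tested BMP regulators and ligands listed with CRIM1, 4 were lower and 0 higher, FST falling most (-1.30, adjusted p = 1.77e-05). Exons of ENTPD3, ADORA1, F2R, TFPI2, PROCR, DPP4, ALPP and NEDD4L are overlapped by antisense genes, and the strand setting of the counting is not given in the sources used here. The antisense gene of ENTPD3, ENTPD3-AS1, held 45 and 54 counts in shCON and 37 in each shZDHHC15 sample, against 25 and 16 and then 62 in each for ENTPD3, so the value of ENTPD3 is uncertain. The same holds for ADORA2A, with 8 and 4 counts in shCON and 26 and 23 in shZDHHC15, beside 16 and 2 and then 24 and 36 for its antisense gene ADORA2A-AS1.

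Beyond the listed genes, likeness over the 4 samples was measured as the root mean square difference of log2 CPM after centring each gene, among the 6545 protein-coding genes averaging 500 counts or more. VIM (0.10) and YAP1 (0.18) were nearest to CYR61, THBS1 (0.10) and IDS (0.17) to CTGF, XAGE2 (0.019) and NUAK2 (0.076) to AXL, and CXCL8 (0.019) and DUSP5 (0.033) to F3. FIBP (0.027) and DBN1 (0.027) were nearest to AMOTL2, UNC119B (0.021) and DDAH1 (0.023) to AMOTL1, FTSJ1 (0.0068) and RHOD (0.017) to AJUBA, and RCL1 (0.016) and ULBP2 (0.022) to CRIM1. XAGE2 (0.21) and KRT86 (0.22) were nearest to ANKRD1, and BTNL9 (0.022) and DDX51 (0.022) to NT5E. Exons of VIM are overlapped by antisense genes, with 0 counts for AL133415.1 and at most 16 in a sample for VIM-AS1. IDS and KRT86 have near-identical copies, of which AC244197.3, a copy of IDS, held at most 10 counts. Exons of THBS1, UNC119B and DDAH1 are also overlapped by other genes, which held at most 13 counts in a sample. The counts of VIM, IDS, KRT86, THBS1, UNC119B and DDAH1 are therefore uncertain to an extent that was not tested. With 4 samples in 2 groups this likeness mostly reflects a fold change of similar size.

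The members share little in gene structure. CYR61 and CTGF are compact genes spanning 3202 and 3198 bases, of which 76.7% and 73.1% are exonic, whereas AMOTL1 and CRIM1 span 170323 and 195210 bases with 5.89% and 3.65% exonic. Besides those of CTGF and AMOTL2, exons of AMOTL1, AXL, CRIM1 and AJUBA are overlapped by other genes, which held at most 4 counts in a sample. Within 500 kb of the 10 genes, a window chosen after the values were seen, 99 other genes were tested, of which 28.3% were lower and 20.2% higher, against 20.3% and 21.7% of all tested genes. F3 had 6 lower neighbours among 9 tested and AMOTL1 had 5 higher neighbours among 10.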

How the data were processed

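Per the labels, RNA libraries of 4 HCC1954 samples were built with the NEBNext Ultra kit. The submitters' processing notes name HISAT2, StringTie, SAMtools and hg38, without roles or versions. The counting tool, the annotation and the strand setting are not given in the sources used here. The authors deposited raw counts of reads per gene with each gene's length. All 58735 gene IDs, starts and ends matched GENCODE release 29 (GRCh38), and each length equalled the union of its exons there. Every sample column was used, and groups came from the sample titles.

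Counts passing filterByExpr (15817 genes) were scaled by TMM and tested with edgeR 4.0.16 (R 4.3.3; glmQLFit, legacy = FALSE; glmQLFTest), shZDHHC15 against shCON, with Benjamini-Hochberg adjustment over all tested genes. Intervals are 95%, from the standard error (the fold change over the root of F) and the total degrees of freedom, 14.8 for each member. These include spread shared over all tested genes. TPM used the deposited length. Overlaps were counted on GENCODE exons. The steps were tested on simulated counts. Depth was 17560982 to 19118704 counts per sample, and floors of 3 counts cover counting error only. Genes named beside the members were those called with the largest rise or fall in each list, family members, and the 2 most alike in pattern. The members and lists were chosen with earlier results of these data known. Alternatives were other scalings, DESeq2 1.42.0, other filters, the legacy dispersion, a replicate block and leaving out each sample. A filter on the mean count, 3 gene pairs and the neighbour window were added after seeing the data. Some of the listed genes are not reported here by name.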

Additional observations from a re-analysis of the deposited data

How the results depend on the processing

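The 9 falls kept their direction under each alternative that gave a value, 13 for each gene and 12 for ANKRD1. ANKRD1 could not be fitted when every sample had to reach 10 counts. In the alternatives that kept all 4 samples the 9 falls also kept an adjusted p under 0.05. ANKRD1 passed the main filter only through shCON and so had to differ, which makes its fall no support. Leaving out each sample in turn gave log2 fold changes of -3.21 to -2.46 for CYR61, -2.81 to -2.02 for CTGF, -2.26 to -1.92 for ANKRD1, -1.99 to -1.83 for AXL, -1.03 to -0.95 for AMOTL2, -0.84 to -0.66 for AJUBA, -0.75 to -0.63 for CRIM1, -0.75 to -0.63 for AMOTL1, -0.77 to -0.36 for F3 and -0.33 to 0.051 for NT5E, the positive value being that without shZDHHC15 replicate 1 (adjusted p = 0.86). In those fits the lone sample of a group is assumed to vary like the other group, and the spread was pooled over all genes, so their p-values say little of a single gene. The DESeq2 Wald test gave larger standard errors than edgeR for every member. The excess was largest for CYR61 (0.36 against 0.17), CTGF (0.38 against 0.17) and ANKRD1 (0.73 against 0.43), and smaller for the others, such as AXL (0.18 against 0.13). Intervals built on the DESeq2 standard errors of CYR61, CTGF and ANKRD1 would be wider than those printed. With no filter on low counts 2282 genes were higher, against 3427. The other counts of genes and members called stayed within 1.5 times. Library size as the only scaling moved the median of all tested genes from 0.02 to 0.09, and called 2546 genes lower and 3926 higher, against 3217 and 3427; CYR61 then stood at -2.71 and F3 at -0.47. The replicate numbers share only a number in the labels. Replicate 1 minus replicate 2 correlated at 0.02 between the groups over 15817 genes, and the replicate block called 3502 genes lower and 3723 higher and changed no call of a member. Adding 0.5 counts left the 3 ratios it was run on (CYR61 to CTGF, AMOTL2 to AMOTL1 and AMOTL2 to AMOT) within their spread, and the 250 bases before the start alone held the same motif counts. TPM over protein-coding genes only moved 10 of 20 group means by more than their spread.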
